A study of Mus musculus with 9 samples.

Results

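The nuclear genes of oxidative phosphorylation were followed in mouse mononuclear bone marrow cells carrying MLL-AF9, a fusion oncogene that joins MLL to AF9. Members were the rows of the RNA table whose symbol begins with Nduf followed by a, b, c, s or v, is Sdha, Sdhb, Sdhc or Sdhd, or begins with Uqcr, Cox4 to Cox8, or Atp5. The rule took 89 of 22942 rows: 41 for complex I, 4 for complex II, 8 for complex III, 19 for complex IV and 17 for complex V. It used names only and no measured value. Of the 89, 84 averaged 1 FPKM or more over the groups and are called expressed. FPKM is the number of fragments per kilobase of transcript, scaled to the mapped fragments of the library. The other 5 were Cox4i2, Cox7b2, Cox8b, Cox8c and Ndufa4l2. The pattern also takes proteins that are not subunits, 8 of them expressed: Ndufaf1, Ndufaf2, Ndufaf3 and Ndufaf4, which assemble complex I, Atp5s, Atp5sl, Cox7a2l, a supercomplex assembly protein, and Cox4nb, an older name of the membrane complex subunit Emc8.

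Cells were of strain B6.SJL, which carries the CD45.1 marker. Control cells had received the empty retroviruses MSCVneo and MSCVpuro, and the other group MSCVneo carrying MLL-AF9 together with empty MSCVpuro, so both groups carried both vectors. RNA-seq covered 3 libraries in each group, and the authors' deposited table holds a single pooled FPKM level for each group, along with their own p-value and q-value. Which libraries entered these levels is not given in the sources used here. Spread between libraries and depth are therefore unknown, so no error stands beside a level, and the labels do not say whether libraries came from separate animals. Below, where levels come in pairs, MLL-AF9 stands first and control second.

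Oxidative phosphorylation turns electrons from nutrients into ATP at the inner mitochondrial membrane. Complexes I and II feed electrons to ubiquinone, complex III passes them to cytochrome c, and complex IV, cytochrome c oxidase, gives them to oxygen. The proton gradient built on the way drives complex V, the ATP synthase. Most subunits are nuclear genes, some with isoforms of muscle, lung or testis, while the catalytic center of complex IV and parts of complexes I, III and V are encoded by mitochondrial DNA, which was not analysed here.

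The fusion's known targets and the markers of mature cells differed strongly between the groups. In the authors' deposited table Hoxa9 reached 65.9 FPKM with the fusion against 0.876 in control cells, and Meis1 stood at 42.6 and 1.68 FPKM. The leukocyte markers Ptprc (142 and 257 FPKM) and Laptm5 (632 and 483 FPKM) were present in both groups. Of 9 measured leukocyte and myeloid markers, 4 were higher and 5 lower with MLL-AF9 in FPKM. They summed to 4222 and 15386 FPKM, with Lyz2 at 890 and 12233 FPKM (authors' deposited q of 0.101). All measured markers of late granulocytes (9), B cells (8), T and NK cells (8) and erythroid cells (8) were lower with MLL-AF9 in FPKM. Of these, 9, 7, 8 and 6 were called lower, that is with a q below 0.05 in the authors' deposited table. Over all 11538 expressed rows 5.2% were called lower. The granulocyte markers summed to 21876 and 194932 FPKM. The B cell markers summed to 38.6 and 675 FPKM, the T and NK cell markers to 26.7 and 194 FPKM, and the erythroid markers to 17.01 and 232 FPKM. No marker of the granulocyte, B cell, T and NK cell and erythroid lists was at 0 in either group, apart from S100a9, a failed estimate that was left out. The part of this change of cell types in the levels below was not tested, and fewer cells of a type cannot be told apart from less RNA per cell.

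Across the respiratory chain, levels in MLL-AF9 and control cells were close, and a single member passed the test. Of the 84 expressed members 1 rose, the testis isoform gene Cox6b2, and 0 fell, where a call is a q below 0.05 in the authors' deposited table. Over all 11538 expressed rows 10.3% were called, 5.13% as higher and 5.2% as lower. At an unadjusted p under 0.05 there were 2 members, Cox6b2 and Cox7a1, beside 19.8% of all expressed rows. The name of the authors' test is not given in the sources used here. Of the members 80 had a q-value of at least 0.5. In FPKM 54 members lay higher with MLL-AF9 and 30 lay lower. The median log2 change, the log2 ratio of MLL-AF9 to control after adding 1 FPKM to each, was 0.098, with quartiles of -0.079 and 0.27. This scale understates the change of low genes.

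The sign of that median depends on the reference. The median of all expressed rows was itself shifted by 0.29, so the members lay 0.20 below it (a difference of -0.20), with 65 of 84 under it and 19 above. The members' median became -0.068 under upper-quartile scaling and was 0.028 under quantile normalization. Centring, upper-quartile scaling and equal totals move all genes by nearly the same amount and so leave the difference from all expressed rows almost as it was. Quantile normalization can change it, and there it was -0.058. Among rows averaging 30 FPKM or more, a comparison chosen after seeing the data, the 74 members had a median of 0.071 and all 3367 rows one of 0.19. At that level 1 of 74 members was called, beside 9.65% of all rows. With no minimum level, the median of all rows was 0, with rows listed at 0 included, and the difference was 0.070 in the other direction. S100a8, a granulocyte gene, made up 15.4% of all FPKM in control and 2.11% in MLL-AF9 cells. Both columns were also scaled to equal totals without S100a8, S100a9 and small RNA rows. The median was then 0.32 for all expressed rows and 0.13 for members. Other granulocyte genes, among them Ngp, Camp and Ltf, stayed in these totals, and their part in the shift was not tested. Without S100a8, S100a9 and small RNA rows, the expressed members made up 2.00% of the summed FPKM with MLL-AF9 and 1.885% in controls.

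**Figure D1:**
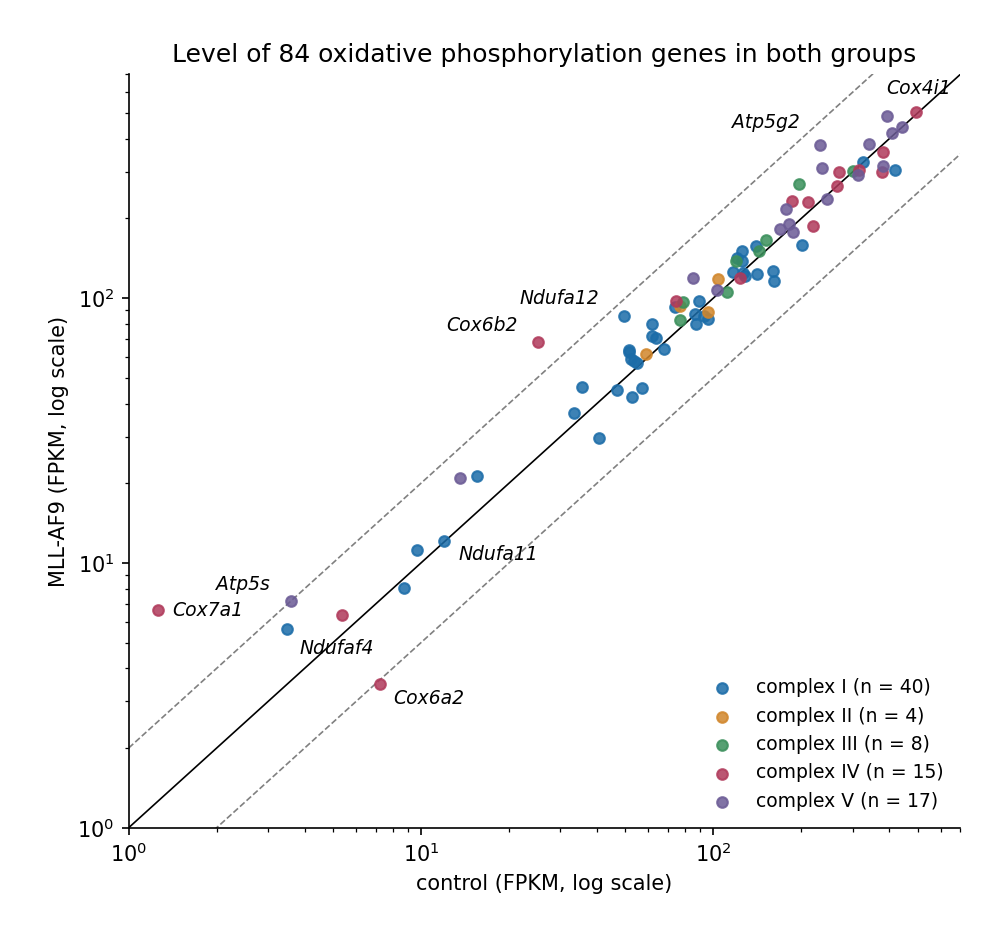
FPKM of the 84 expressed members in control (x axis) and MLL-AF9 cells (y axis), both on log scales, 1 point per gene and colored by complex; the solid line marks equal levels and dashed lines a 2-fold difference. Most points lie along the line of equality, and Cox7a1, Cox6b2 and Cox6a2 lie beyond a dashed line.

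Most members lay within 1.5-fold between the groups. A ratio of 1.5-fold or more in either direction was seen for 8 of 84 members (9.52%), whereas 47.8% of all expressed rows reached it. Among rows averaging 30 FPKM or more the figures were 3 of 74 members (4.05%) and 38.8% of 3367 rows. Of 74 mitochondrial ribosomal protein genes, 9.46% reached 1.5-fold, close to the share of the members, and 0 were called. The 8 members were Cox7a1, Cox6b2, Cox6a2, Ndufa12, Atp5g2, Ndufaf4, Atp5s and Atp5sl. Of these, 3 are isoform genes and 3 are no subunits. The interquartile range of the log2 change at 30 FPKM or more was 0.31 for members and 0.81 for all rows. Across the 84 members log2 FPKM in the groups had a Pearson correlation of 0.972 and a Spearman correlation of 0.977. These are values across genes of the same libraries, and genes are not replicates.

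Small ratios were not called in any gene of similar abundance. Among 1809 rows of at least 30 FPKM with an absolute log2 ratio under 0.5 (1.41-fold), 0 had a q-value under 0.05, and 71 of the 74 members lay in that range. The smallest called ratio at this level was 1.53-fold. Between a log2 ratio of 1.5 and 2, 91 of 119 rows were called, and from 2 upward 157 of 169. Missing the threshold thus does not show that a member was equal in the groups.

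**Figure D2:**
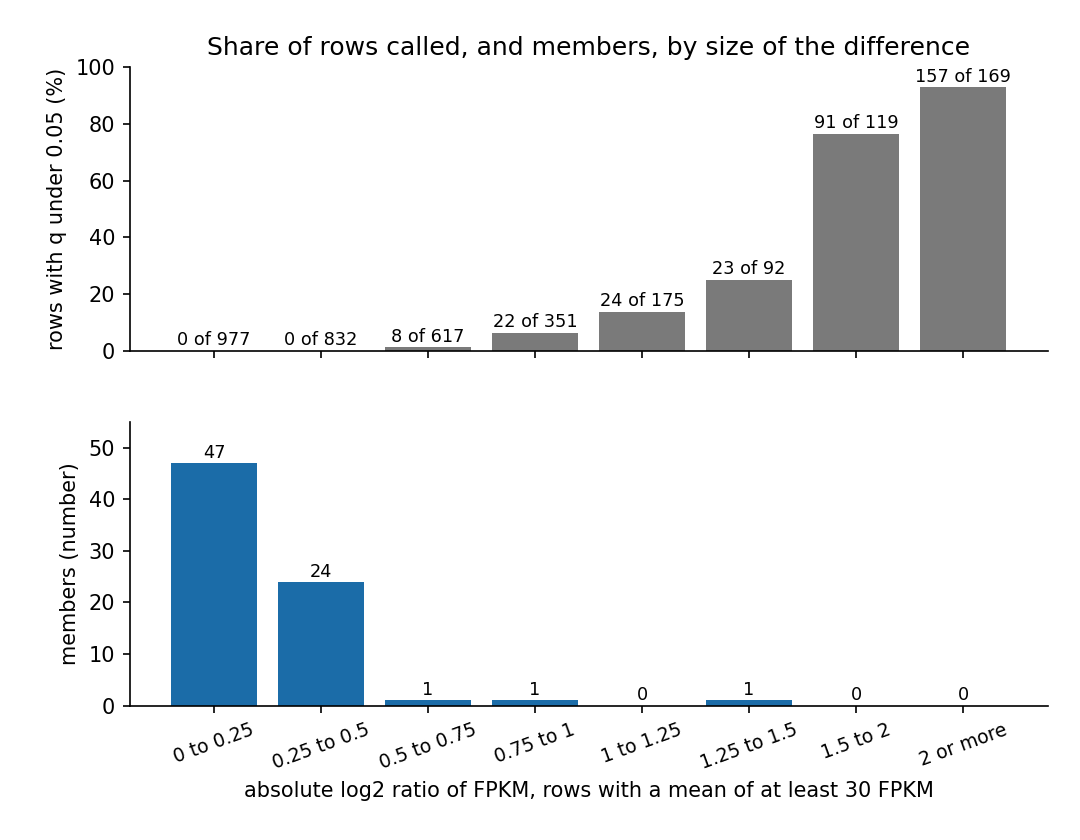
Rows averaging 30 FPKM or more, grouped by the absolute log2 ratio of the groups (x axis); the upper panel gives the percentage with a q-value under 0.05 and the lower panel the number of members. The upper bars stand at 0 for the first 2 classes, which hold 47 and 24 members.

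Members were among the more abundant transcripts. Of the 84, 51 (60.7%) lay in the top 10% of expressed rows by mean FPKM, that is above 86.5 FPKM. The complexes differed in level, with medians in control cells of 65.8 FPKM for complex I, 86.4 for complex II, 131 for complex III, 210 for complex IV and 231 for complex V. In MLL-AF9 cells these medians were 79.9, 91.3, 144, 231 and 238 FPKM, in the same order. They take in tissue isoforms and proteins that are no subunits. Without these, control medians were 80.3 FPKM for complex I, 267 for complex IV and 235 for complex V. With MLL-AF9 they were 84.4, 281 and 291 FPKM. The order of complexes IV and V in control cells thus depends on the members taken in, while with MLL-AF9 complex V was higher either way. Short transcripts and processed pseudogene copies, common for these genes, can bias FPKM, and their effect was not tested.

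Complex I, the NADH dehydrogenase, had 40 expressed members, of which 0 were called, beside 10.3% of all expressed rows. In the smaller complexes and groups below, that share gives little room to differ. Its 7 nuclear core subunits carry the NADH site and the iron-sulphur clusters. They stood between 36.8 and 97.4 FPKM with MLL-AF9 and between 33.2 and 89.1 FPKM in controls. All 7 were within 1.5-fold, with log2 changes from -0.081 for Ndufs7 to 0.27 for Ndufs3. Ndufv1, which binds NADH, was at 45.2 with MLL-AF9 and 46.8 FPKM in controls, and Ndufs1, an iron-sulphur subunit, at 36.8 and 33.2 FPKM. Each core subunit was thus close between the groups as deposited, with all 7 below the median log2 change of all expressed rows. Levels differed among the subunits.

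The 29 accessory subunits of complex I, which surround the core, spread more widely, from 12.1 to 326 FPKM with MLL-AF9 and from 11.95 to 418 FPKM in controls. Ndufa11 was the lowest, at 12.1 and 11.95 FPKM. Ndufa3 was the highest in control cells, at 306 with MLL-AF9 and 418 FPKM in control. Their median log2 change was 0.0050, with 16 higher and 13 lower as deposited, and 5 above and 24 below the median of all expressed rows. Under centring on that median, the median of complex I as a whole went from 0.075 to -0.22. The largest value of the complex was that of Ndufa12, at 85.4 and 49.4 FPKM, 1.73-fold with q = 0.486 in the authors' deposited table. At the other end stood Ndufa1, an X-linked membrane-arm subunit, at 116 and 161 FPKM (q = 0.685), and Ndufs4, at 29.6 and 40.6 FPKM (q = 0.694). None of these 3 passed. Ndufa4, now assigned to complex IV, was at 326 FPKM in both groups. The 10 Ndufb members, of the membrane arm, had 4 higher and 6 lower, with a median log2 change of -0.094, and the 14 Ndufa members had 9 higher and 5 lower, with a median of 0.060.

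The assembly factors of complex I had a median of 9.59 and 9.21 FPKM, against 84.4 and 80.3 FPKM for its 36 subunits. The ranges overlapped, since Ndufaf3 stood above the subunit Ndufa11. Ndufaf1 was at 8.03 and 8.72 FPKM, Ndufaf2 at 11.2 and 9.71, Ndufaf3 at 21.3 and 15.6, and Ndufaf4 at 5.65 and 3.49 FPKM. Of these 4, 0 were called, and 3 were higher in MLL-AF9 cells in FPKM, 2 of them above the median of all expressed rows.

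Complex II, succinate dehydrogenase, is shared with the tricarboxylic acid cycle and wholly nuclear. Its flavoprotein Sdha was at 93.6 and 77.1 FPKM, and its iron-sulphur subunit Sdhb at 89.0 and 95.8 FPKM. The membrane anchors stood at 61.6 and 58.7 FPKM for Sdhc and at 118 and 104 FPKM for Sdhd. None of the 4 was called, with q-values of at least 0.822 in the authors' deposited table, and the 4 genes stayed within a narrow band of level in both groups.

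Complex III, the cytochrome bc1 complex, had 8 members, 7 of them higher in MLL-AF9 cells in FPKM, 2 of them above the median of all expressed rows, and 0 called. The Rieske iron-sulphur protein Uqcrfs1 was at 82.4 and 77.2 FPKM. The core proteins were at 106 and 112 FPKM for Uqcrc1 and at 97.1 and 78.6 FPKM for Uqcrc2. The small subunits were higher in level, with Uqcrq at 138 and 119 FPKM, Uqcr10 at 165 and 152 FPKM, and Uqcr11 at 150 and 143 FPKM. Uqcrh, the hinge protein, was at 301 FPKM in both groups, and Uqcrb, at 269 and 197 FPKM, had the largest log2 change of the complex (0.45, q = 0.685). The cytochrome c1 gene Cyc1, which the pattern does not take, stood at 87.9 and 77.7 FPKM.

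**Figure D3:**
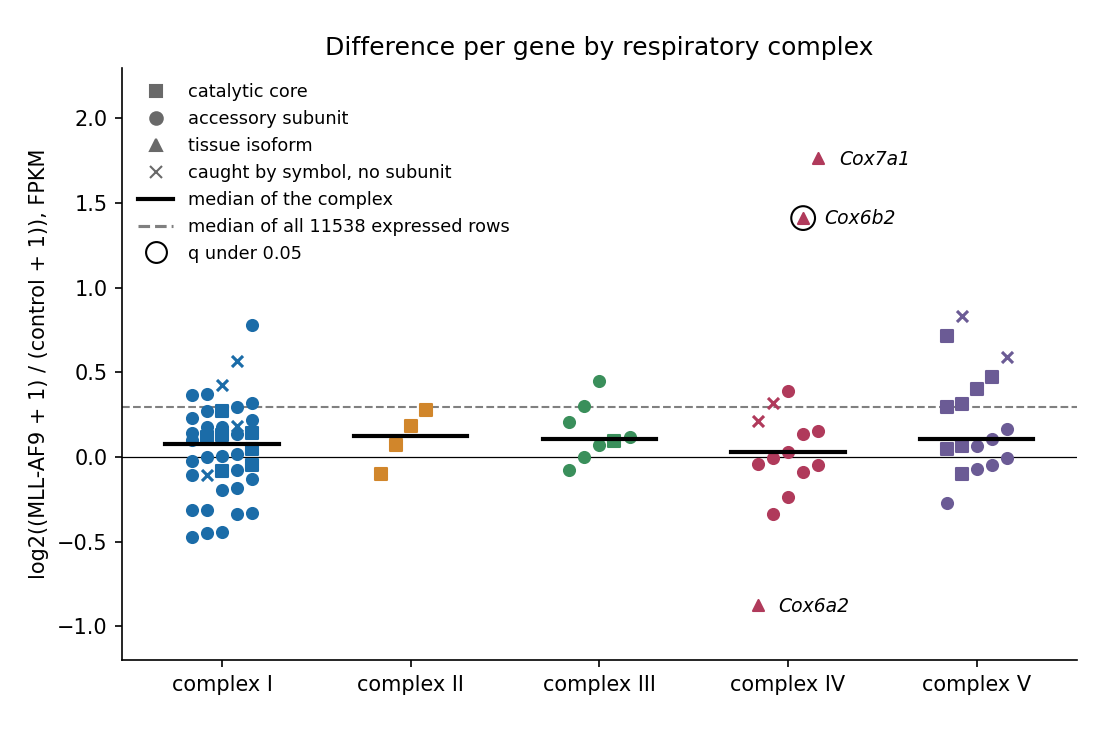
Log2 ratio of MLL-AF9 to control after adding 1 FPKM to each (y axis) for the 84 expressed members by complex, with a black bar for the median of each complex, a dashed line for the median of all 11538 expressed rows (0.29) and symbols for the role of each gene. The medians of the complexes lie between 0.029 and 0.12, all below the dashed line, and the called gene, Cox6b2, is ringed.

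Complex IV had 15 expressed members: 10 ubiquitous subunits, 3 tissue isoforms and 2 proteins that are no subunits. The 10 ubiquitous subunits were all within 1.5-fold, with 4 higher, 6 lower and a median log2 change of -0.026. Cox4i1, the most abundant member in both groups, was at 503 and 493 FPKM. Cox5b was at 264 and 266 FPKM, Cox8a at 304 and 315 FPKM, and Cox7c at 231 and 210 FPKM. Cox5a was at 187 and 220 FPKM, and Cox6c at 299 and 269 FPKM. Of the proteins that are no subunits, Cox7a2l was at 233 and 186 FPKM and Cox4nb at 6.36 and 5.36 FPKM. The lowest ratio among the ubiquitous subunits was that of Cox6a1, at 298 and 377 FPKM (q = 0.773), and the highest that of Cox7b, at 97.9 and 74.4 FPKM (q = 0.729). All 3 expressed tissue isoforms lay beyond 2-fold, 2 upward and 1 downward, but only Cox6b2 passed the test. No test of the difference between ubiquitous subunits and isoforms was made.

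Cox6b2, a testis isoform of a subunit on the intermembrane side of the enzyme, was at 68.6 and 25.2 FPKM. It was 2.72-fold higher, with a log2 change of 1.41 and q = 0.0365 in the authors' deposited table, and it kept its direction under centring (1.12) and quantile normalization (1.24). It is not called at a q-value under 0.01. Its ubiquitous counterpart Cox6b1 was at 357 and 380 FPKM (q = 0.950). Cox6b2 thus made up 16.1% of the FPKM of both genes in MLL-AF9 and 6.22% in control cells, while the sum of the pair was 426 and 405 FPKM. In RefSeq (GRCm38) no other gene overlaps Cox6b2, whereas 29 of the 89 members overlap another annotated gene. Reads shared with Cox6b1 were not tested.

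The start windows of the pair are shown because they belong to the gene that rose and to its partner that did not pass. Each runs from 250 bases before to 50 bases after the annotated start in RefSeq (GRCm38.p6), 5′ to 3′ in the direction of the gene. The Cox6b1 window lies at chr7:30626065-30626364 and the Cox6b2 window at chr7:4753045-4753344, both on the minus strand. Capitals mark the match to CTTCCGG, the reverse complement of the ETS motif CCGGAAG, in Cox6b1 and to the SP1 motif GGGCGG in Cox6b2.
Cox6b1: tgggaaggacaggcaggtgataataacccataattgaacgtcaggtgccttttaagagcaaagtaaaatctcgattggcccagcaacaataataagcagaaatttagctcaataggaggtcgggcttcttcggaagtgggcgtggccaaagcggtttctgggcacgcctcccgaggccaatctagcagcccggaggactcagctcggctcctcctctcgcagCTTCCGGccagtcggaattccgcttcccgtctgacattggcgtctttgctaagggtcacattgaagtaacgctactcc
Cox6b2: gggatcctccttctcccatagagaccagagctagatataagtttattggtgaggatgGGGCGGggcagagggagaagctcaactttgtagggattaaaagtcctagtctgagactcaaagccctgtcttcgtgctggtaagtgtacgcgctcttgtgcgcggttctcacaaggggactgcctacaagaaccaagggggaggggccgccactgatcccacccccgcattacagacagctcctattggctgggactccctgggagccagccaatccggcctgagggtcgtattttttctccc
The windows had a GC content of 53.0% for Cox6b1 and 55.7% for Cox6b2.

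Muscle isoforms were low. Cox7a1, of heart and skeletal muscle, was at 6.67 and 1.26 FPKM, 5.30-fold apart, and did not pass (q = 0.184 in the authors' deposited table). It made up 5.28% of the FPKM of Cox7a1 and Cox7a2 together in MLL-AF9 and 1.01% in control cells. The ubiquitous Cox7a2 was at 120 and 123 FPKM. Cox6a2, another muscle isoform, stood at 3.50 and 7.26 FPKM (q = 0.597), and its span overlaps that of Itgad in RefSeq, listed at 2.67 and 0.962 FPKM. The libraries were unstranded, and whether the genes share reads was not tested. Cox8b of muscle and Cox7b2 and Cox8c of testis were listed at 0 in both groups, and Cox4i2 of lung stood at 0.304 and 0.244 FPKM. In complex I, Ndufa4l2, a relative of Ndufa4, was listed at 0 with MLL-AF9 and at 0.0337 FPKM in control. Of 9 measured muscle and stromal markers, Myh1, Myh4 and Mb were listed at 0 in both groups. Ckm, the muscle creatine kinase, rose, at 7.30 and 0.147 FPKM (authors' deposited q of 3.09e-06), Pdgfrb rose, at 12.1 and 0.519 FPKM, and Acta1 was at 18.3 and 31.1 FPKM without passing. Col1a1 (0.248 and 0.744 FPKM), Cdh5 (0.151 and 0.634 FPKM) and Col3a1 (0.113 and 0.0666 FPKM) stood under the minimum level, the first pair lower with MLL-AF9, and were not called. The 3 markers with a mean of at least 1 FPKM summed to 37.8 and 31.7 FPKM. Their part in the isoform levels was not tested.

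**Figure D4:**
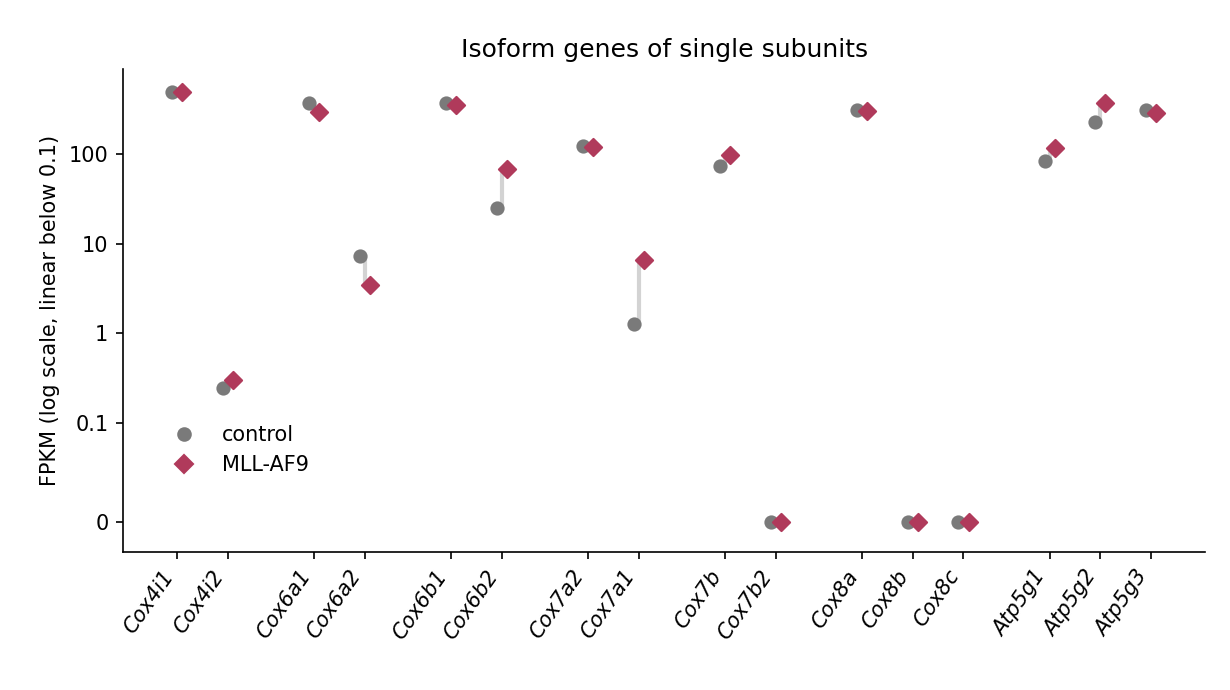
FPKM (y axis, log scale, linear below 0.1) of isoform genes of single subunits in control (grey circles) and MLL-AF9 cells (red diamonds). Ubiquitous forms lie above 70 FPKM in both groups, and Cox6b2 is the highest of the tissue isoforms, at 25.2 in control and 68.6 FPKM in MLL-AF9.

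Complex V, the ATP synthase, had 17 members and the highest summed level, 4290 and 3910 FPKM, with 0 called. The catalytic head subunits were at 311 and 235 FPKM for Atp5a1 and at 488 and 393 FPKM for Atp5b. Of the central stalk, Atp5c1 was at 217 and 177 FPKM, Atp5d at 107 and 103 FPKM, and Atp5e at 422 and 408 FPKM. These 5 were all higher in MLL-AF9 cells in FPKM, although Atp5c1, Atp5d and Atp5e lay below the median of all expressed rows, and all were within 1.5-fold, with q-values from 0.774 for Atp5a1 to 0.974 for Atp5e. The 8 genes of head, central stalk and rotor ring had a median log2 change of 0.30, close to the 0.29 of all expressed rows, and the 7 of the peripheral stalk and membrane part one of -0.0042. This difference between parts of the enzyme was not tested. Of the latter, Atp5f1 was at 178 and 187 FPKM, Atp5j2 at 238 and 246 FPKM, and Atp5k at 382 and 340 FPKM. Further, Atp5l was at 442 and 443 FPKM, Atp5o at 182 and 169 FPKM, and Atp5h, the lowest ratio, at 315 and 381 FPKM (q = 0.818).

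Atp5g1, Atp5g2 and Atp5g3 encode the same mature subunit c of the rotor ring with different import peptides. Atp5g1 was at 119 and 85.4 FPKM, Atp5g2 at 380 and 231 FPKM, and Atp5g3 at 291 and 312 FPKM. None of the 3 passed, with q-values of 0.591, 0.461 and 0.944 in the authors' deposited table. Their sum was 790 and 628 FPKM, 1.26-fold higher in MLL-AF9 cells. Atp5g2 made up 48.1% of it in MLL-AF9 and 36.8% in control cells, and Atp5g3 made up 36.9% and 49.6%, so the leading gene of the trio was Atp5g2 in MLL-AF9 and Atp5g3 in control cells. How reads of these related sequences were divided is not given in the sources used here. Atp5s and Atp5sl, which are no subunits of the enzyme, stood at 7.197 and 3.61 FPKM and at 21.0 and 13.6 FPKM (q = 0.534 and 0.571).

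Start windows were at hand for 73 of the 89 members in 79 windows of RefSeq (GRCm38.p6), 3 of the 73 under a newer symbol. Their sequences were searched for the motifs of factors known for genes of the respiratory chain, on both strands, beside all 32851 windows and the 9461 windows of expressed genes. The NRF1 motif, GCGC and again GCGC with 2 bases of any kind between, was in 25.3% of member windows, 6.23% of all windows and 13.6% of those of expressed genes. The YY1 motif AAGATGGC was in 15.2%, 2.75% and 4.63%, and the ETS motif CCGGAAG, bound by GABPA among others, in 21.5%, 8.86% and 18.6%. The share with the SP1 motif GGGCGG was 43.0% for members, 35.7% for all windows and 62.4% for expressed genes, and that with the MYC motif CACGTG was 11.4%, 7.15% and 10.4%. None of the 5 motifs holds another of them. The shares of NRF1, YY1 and ETS were thus higher in member windows than in either set, by little over expressed genes for ETS. The SP1 share lay between the sets. The MYC share was also higher by window, by little over expressed genes, but its 9 matches were 7 distinct sites. Overlapping windows of Atp5sl and Ndufa7 held the same sites, and such repeats in the other sets were not counted. These shares are descriptions without a test, and the sets overlap. Median GC content was 57.7% in member windows and 60.3% in those of expressed genes.

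Of the 73 genes, 41 held at least 1 of the NRF1, ETS and YY1 motifs and 32 held none. Ndufs6 was the only member with both NRF1 and YY1 matches. The 12 YY1 matches were 11 distinct sites, since overlapping windows of Atp5sl hold the same site. Of the 11, 10 read in the direction of the gene, and 8 began after the start in every window, up to 38 bases downstream, while that of Atp5sl lay before or after it by window. The 28 NRF1 matches were 27 distinct sites. NRF1 matches ran from position -191 to 30 relative to the start, with a median of -36. The median log2 change was 0.10 for 19 expressed members with NRF1 and 0.062 for 52 without. It was -0.0042 for 17 with ETS and 0.117 for 54 without, and -0.048 for 11 with YY1 and 0.098 for 60 without. These differences were not tested.

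**Figure D5:**
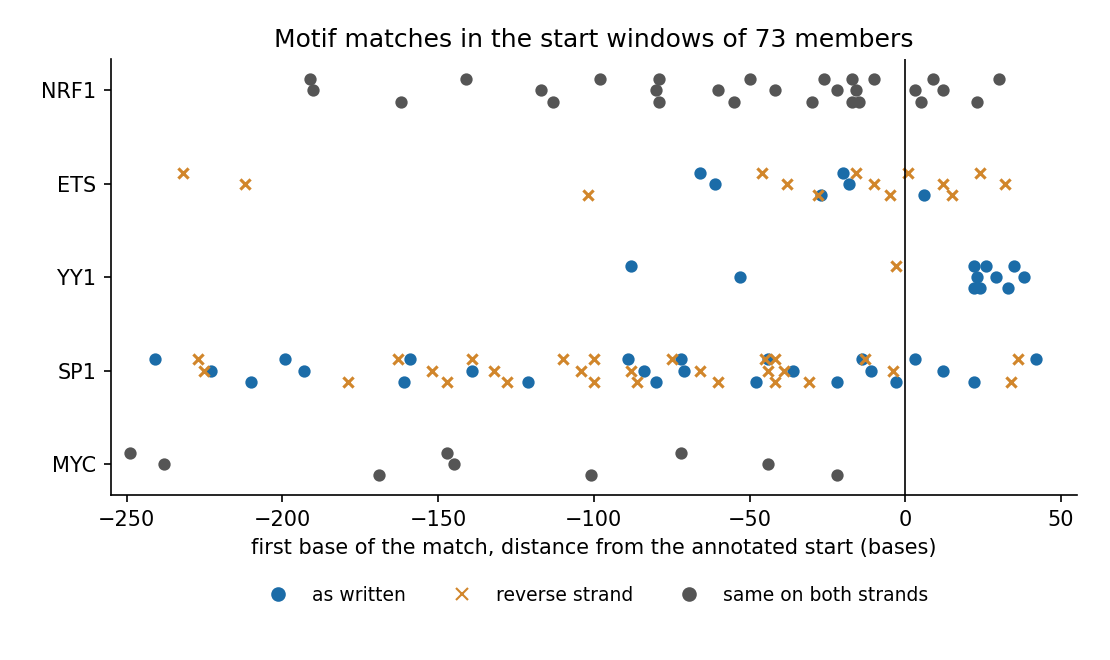
Position of each motif match relative to the annotated start (x axis, bases) in the 79 windows of 73 members, 1 row per motif, with blue circles for matches read as written, orange crosses for the reverse strand and grey circles for motifs that read the same on both strands. Of 12 YY1 matches, 9 lie to the right of the start line, with the site of Atp5sl drawn once per window, while NRF1 matches are spread from -191 to 30.

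The windows of Ndufs6, with the NRF1 and YY1 motifs in 1 window, and of Uqcrc1, with NRF1 matches alone, are given as examples. Both Uqcrc1 matches begin after the start, at positions 5 and 30, whereas 21 of the 27 distinct NRF1 sites lie before it. The Ndufs6 window lies at chr13:73328433-73328732 on the minus strand and the Uqcrc1 window at chr9:108936398-108936697 on the plus strand, both in GRCm38.p6 and read 5′ to 3′ in the direction of the gene. Capitals mark the NRF1 matches and, toward the end of the Ndufs6 window, the YY1 match.
Ndufs6: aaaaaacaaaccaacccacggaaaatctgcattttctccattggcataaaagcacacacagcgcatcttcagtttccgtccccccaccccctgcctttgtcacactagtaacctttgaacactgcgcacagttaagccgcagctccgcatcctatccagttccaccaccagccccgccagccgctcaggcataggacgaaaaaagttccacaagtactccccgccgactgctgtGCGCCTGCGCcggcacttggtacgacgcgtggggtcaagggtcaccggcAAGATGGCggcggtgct
Uqcrc1: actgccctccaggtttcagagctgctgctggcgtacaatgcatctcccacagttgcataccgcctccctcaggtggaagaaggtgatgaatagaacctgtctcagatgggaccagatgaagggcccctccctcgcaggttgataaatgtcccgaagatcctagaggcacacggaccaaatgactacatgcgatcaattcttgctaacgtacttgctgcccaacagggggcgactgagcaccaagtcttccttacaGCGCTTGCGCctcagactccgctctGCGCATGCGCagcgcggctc
Ndufs6 was at 86.9 and 86.5 FPKM, and Uqcrc1 at 106 and 112 FPKM, so both were close to equality as deposited. Relative to the median log2 change of all expressed rows, they lay at -0.29 and -0.37.

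Of 13 expressed regulators of mitochondrial biogenesis 0 rose and 0 fell, beside 10.3% called of all expressed rows, a share that gives little room to differ in so short a list. Their median log2 change was 0.28 as deposited, 0.021 under quantile normalization and -0.019 after centring, and 0 had an unadjusted p under 0.05. Gabpa, an ETS factor, was at 28.01 and 16.3 FPKM (q = 0.424), and Yy1 at 57.4 and 47.3 FPKM. Gabpa overlaps the member Atp5j in RefSeq, and Atp5j itself was at 190 and 182 FPKM. Tfam, which packs mitochondrial DNA and helps its transcription, was at 10.4 and 10.3 FPKM. The coactivator Ppargc1a stood at 0.0207 and 0.0775 FPKM. Nrf1 was not matched and so not counted.

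Among 4 other mitochondrial lists, 0 genes were called, beside 10.3% of all expressed rows. Their medians lay between 0.27 and 0.44 as deposited and between -0.027 and 0.14 after centring. Under quantile normalization they were 0.17 for assembly factors, 0.12 for ribosomal proteins, 0.20 for the tricarboxylic acid cycle and 0.34 for carriers and export. Of 74 mitochondrial ribosomal protein genes 0 rose and 0 fell (median 0.27, 67 higher in FPKM but 36 above the median of all expressed rows), of 17 genes of the tricarboxylic acid cycle 0 and 0 (median 0.28), of 24 further assembly factors 0 and 0 (median 0.44), and of 12 genes of electron carriers and ATP export 0 and 0 (median 0.34). At an unadjusted p under 0.05 there was 1 ribosomal protein gene, 1 cycle gene, 1 assembly factor and 0 carrier genes. These were Mrps10, at 34.9 and 17.8 FPKM (q = 0.0654), Fh1, the fumarase, at 84.3 and 36.8 FPKM (q = 0.128), and Ecsit, an assembly factor of complex I, at 15.4 and 7.78 FPKM (q = 0.0728 in the authors' deposited table). Cytochrome c, Cycs, was at 73.9 and 41.4 FPKM, and Slc25a5, an ADP and ATP exchanger, at 476 and 305 FPKM, without passing. The genes named here and among the regulators were chosen after their values were seen. Differences between these lists and the members were not tested.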

How the data were processed

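The submitters' processing notes list TopHat 1.4.1, Cufflinks 1.3.0, CASAVA 1.8.2, MACS 1.4, Bowtie 0.17.2 and the mm9 build, without roles or settings. Per the labels' protocols, RNA libraries were unstranded TruSeq with 51-bp single reads, and duplicates are mentioned although 3 RNA samples per group are listed. The deposited RNA table holds 1 value per gene and group, read as the authors' FPKM because its header gives no unit. The p-value and q-value per row are the authors', deposited with the table. No test was computed anew. S100a9, listed at 0 in control with a p of 1, was not used.

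Rows averaging 1 FPKM or more counted as expressed, and those with q under 0.05 as called. Log2 changes used a pseudocount of 1. Scaling steps were tested on simulated data. All expressed members could be named, and from other lists Hoxa9, Hoxa10, Meis1 and up to 3 called genes of the smallest q; others were chosen after their values were seen. Members, lists and tests were chosen with earlier results of these data known. Start windows came from RefSeq and were matched by symbol. The 5hmC lists are in mm9 and were not used here. Python 3.11.15, numpy 2.4.6, pandas 2.3.3 and matplotlib 3.10.9 were used.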

Additional observations from a re-analysis of the deposited data

How the results depend on the processing

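Cox6b2 was the only called member with no minimum level, with a mean of at least 5 FPKM, at a q-value under 0.1 and among subunits only. At a q-value under 0.01 the number of called members was 0, and by construction it was 0 without Cox6b2, a setting chosen after seeing the data. No called member was lower in any of these settings. Centring on the median of all expressed rows moved the members' median log2 change to -0.20 and those of complexes I to V to -0.22, -0.17, -0.19, -0.27 and -0.19. Upper-quartile scaling moved them to -0.068 for all members and to -0.091, -0.041, -0.060, -0.14 and -0.063 for complexes I to V. Quantile normalization moved complex I by more than 0.1, to -0.046, and the other medians by less than 0.1, with complex IV at -0.0017. The pseudocount, the minimum level, equal totals and the limit to subunits moved each of these medians by less than 0.1. Of the 84 members, 19 lay above 0 after centring and 45 after quantile normalization, compared with 54 as deposited. No paired analysis was possible because the table holds 1 pooled value per group, and leaving out a replicate was not run for the same reason. Depth per library is unknown.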

Other observations

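Of 10 expressed genes of uncoupling and of defence against peroxide and superoxide, 0 rose and 0 fell, with 1 at an unadjusted p under 0.05. Over all expressed rows 10.3% were called and 19.8% had such a p, shares that give little room to differ in so short a list. That gene was Prdx5, a peroxiredoxin found in mitochondria and other compartments, at 626 FPKM with MLL-AF9 against 1667 in control cells (log2 change -1.41, q = 0.132 in the authors' deposited table). Ucp2, an inner membrane carrier of the uncoupling protein family, was at 175 and 259 FPKM, and Gpx1, a glutathione peroxidase, at 1055 and 781 FPKM. The superoxide dismutases were close between groups, Sod1 at 328 and 314 FPKM and the mitochondrial Sod2 at 10.02 FPKM in both. The list had a median log2 change of 0.034 as deposited, -0.058 under quantile normalization and -0.26 after centring, and Ucp1 and Ucp3 stood under the minimum of 1 FPKM. These genes were named after their values were seen.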
